A study of Mus musculus with 4 samples.

Results

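The loci of 10 transcription factors and cofactors that work together in blood stem and progenitor cells, Gata1, Gata2, Gata3, Tal1, Lyl1, Lmo2, Ldb1, Gfi1b, Zfpm1 and Klf1, were followed in single-cell ATAC-Seq of long-term hematopoietic stem cells (LT-HSCs), the cells that sustain all blood lineages. This assay counts the cuts that Tn5 transposase makes in open chromatin. The 10 genes were taken from a fixed list of names, and a locus was defined as the gene body plus 10000 bp upstream, in which 62 of the 93513 peaks of the deposited table lay. For comparison, 17468 protein-coding genes had a peak in such a window.

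The study profiled C57BL/6JRj mice in 4 groups of 1 sample each, and each sample pooled 2500 LT-HSCs from each of 4 mice. CLCA3A1high and CLCA3A1low LT-HSCs, sorted by an antibody against the surface protein CLCA3A1, came from mice of 22 to 28 months, and the other groups were LT-HSCs, not split by CLCA3A1, of young mice of 3 to 4 months and of old mice of 22 to 28 months. GEO lists the table used here under the samples sorted as CLCA3A1high and CLCA3A1low. Its barcodes end in 1 of 2 suffixes, which are called barcode set 1 and barcode set 2, and no label ties a suffix to a sample. The values of both sets are therefore given side by side, without a group direction. With no replicate of either set, no p-value is given, and every interval is a 95% counting interval that does not cover the spread between animals.

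Barcode set 1 held 818 cells and 13050952 counts and set 2 held 636 cells and 9820094 counts, with medians of 13358.5 and 12755.0 counts per cell. No barcode was shared between the sets. Of the LT-HSC markers Procr, Slamf1, Hlf, Mecom, Kit and Ly6a, 5 of 6 had peaks in their windows, with summed levels of 743.5 and 613.6 CPM (counts scaled to a set total of 1000000) in sets 1 and 2, and Ly6a was without a listed peak. The summed windows of the 3 erythroid markers with a peak held 47.4 and 34.0 CPM and those of the 3 megakaryocyte markers held 164.7 and 121.5 CPM, while Hba-a1 had no peak. The peaks at the own promoters of Cd79a, Csf1r and S100a9 held between 2 and 34 counts each over all cells, and the listed peaks gave 0 counts at the own promoters of Cd3g, S100a8 and the erythroid marker Slc4a1. Other such markers held more at their own promoters, with 910 counts at Elane (myeloid), 680 at Pax5 (B cell) and 121 at Lck (T cell). The endothelial markers Cdh5 and Kdr held 106 and 501 counts there, and the stromal markers Col1a1 and Pdgfra 669 and 719. The whole windows of Cd3g and Csf1r held 774 and 1662 counts. The part of these differences in the results below was not tested.

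GATA factors are zinc finger proteins that bind the DNA word AGATAA. TAL1, also called SCL, and its relative LYL1 are basic helix-loop-helix proteins that pair with E proteins and bind E-boxes, words of the form CANNTG. The LIM domain protein LMO2 and its partner LDB1 join both kinds of protein into a complex that sits on paired E-box and GATA words, and ZFPM1, also called FOG-1, binds GATA factors directly. In stem cells GATA2 is the main GATA factor, whereas GATA1, GFI1B and KLF1 are best known from erythroid and megakaryocytic cells and GATA3 from T cells.

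Paired words of this kind, written as CANNTG, 7 to 9 bases of any kind and GATAA, were found at 4 places in the 62 peaks, and these are shown because they are the sequence arrangement that the complex is known for. The positions are on GRCm38, each sequence reads 5′ to 3′ on the strand that carries the pair in this order, and capitals mark the E-box and the GATA word.
Gata2 intron, chr6:88203165-88203224, plus strand: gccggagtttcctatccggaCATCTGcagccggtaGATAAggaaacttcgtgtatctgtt
Gata2 intron, chr6:88202716-88202774, minus strand: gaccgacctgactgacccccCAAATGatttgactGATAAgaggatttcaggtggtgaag
Zfpm1 intron, chr8:122293735-122293794, minus strand: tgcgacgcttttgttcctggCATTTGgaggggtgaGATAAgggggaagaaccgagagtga
Lmo2 intron, chr2:103962665-103962724, minus strand: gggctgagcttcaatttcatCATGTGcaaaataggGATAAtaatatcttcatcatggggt
The Gata2 pair with the E-box CATCTG lay 9.30 kb downstream of the 5′ end of the gene and 4.53 kb downstream of the nearer RefSeq start. It was inside the largest Gata2 peak, which also covers that start. The Zfpm1 pair lay 11.62 kb and the Lmo2 pair 4.71 kb downstream of the 5′ ends of their genes, each inside a non-promoter peak. Pairs occurred at 0.0292 per kb in the promoter peaks of the 10 loci and at 0.0119 per kb in all promoter peaks of the table, and at 0.0353 and 0.0277 per kb in non-promoter peaks. These member densities rest on 2 pairs each.

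The peak upstream of Gata1 was the only member peak with the GATA word AGATAA and an E-box of the form CATCTG or CAGCTG together in its central 300 bases. It is shown with the central 300 bases of the Zfpm1 peak that differed most between the sets among peaks of at least 100 counts, and of the Ldb1 peak that was higher in set 2. All 3 read on the plus strand of GRCm38, and capitals mark the GATA word and both of these E-boxes on either strand.
Gata1, chrX:7971307-7971606: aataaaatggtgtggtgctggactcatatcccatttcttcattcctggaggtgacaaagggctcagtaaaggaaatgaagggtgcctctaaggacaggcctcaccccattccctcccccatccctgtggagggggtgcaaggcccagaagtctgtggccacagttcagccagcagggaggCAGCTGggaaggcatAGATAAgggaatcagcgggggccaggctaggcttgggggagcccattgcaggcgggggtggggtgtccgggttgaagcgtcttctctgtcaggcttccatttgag
Zfpm1, chr8:122309327-122309626: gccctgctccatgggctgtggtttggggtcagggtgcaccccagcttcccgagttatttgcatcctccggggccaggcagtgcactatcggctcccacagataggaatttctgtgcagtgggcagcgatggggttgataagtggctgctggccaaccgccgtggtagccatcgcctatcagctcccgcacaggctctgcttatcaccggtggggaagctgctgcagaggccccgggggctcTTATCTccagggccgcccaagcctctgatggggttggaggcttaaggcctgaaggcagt
Ldb1, chr19:46050448-46050747: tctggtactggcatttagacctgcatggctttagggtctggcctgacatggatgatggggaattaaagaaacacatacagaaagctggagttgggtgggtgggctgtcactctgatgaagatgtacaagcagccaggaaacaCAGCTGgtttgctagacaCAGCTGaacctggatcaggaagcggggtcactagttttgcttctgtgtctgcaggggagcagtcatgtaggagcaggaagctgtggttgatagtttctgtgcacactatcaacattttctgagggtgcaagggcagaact
In the Gata1 peak the E-box and the GATA word were separated by 9 bases. This spacing is wider by a base than the pairs searched above allow, since the search counted from the E-box to GATAA. The Zfpm1 stretch held 1 AGATAA, read on the minus strand. The shorter GATAA of the pair search also stood elsewhere in it on each strand, without capitals. The Ldb1 stretch held 2 E-boxes of the form CAGCTG and no GATA word.

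Accessibility at 9 of the 10 loci stayed within 1.5-fold between the barcode sets, and Gata1 was higher in set 1. Gata1 had 37 and 4 counts, so it reached the minimum of 20 through set 1 only. In thinned cells it fell below that minimum, and 0 loci passed 1.5-fold. By a cut of 1.5-fold in either direction, 1 of 10 loci differed between the sets, while 9.54% of the 17289 protein-coding loci with at least 20 counts did. On the log2 scale, set 1 over set 2 was above 0 at 7 loci and below 0 at 3, with a median of 0.19. Over all coding loci, 50.8% were above 0 and the median was 0.00. Counting intervals lay above 0 at 7 loci and below 0 at Lyl1, and included 0 at Lmo2 and Zfpm1, while they lay above 0 at 22.7% and below 0 at 22.2% of all coding loci. These intervals are too narrow, since cuts come in pairs, and those of Ldb1 and Gfi1b began at 0.02 and 0.05.

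**Figure D1:**
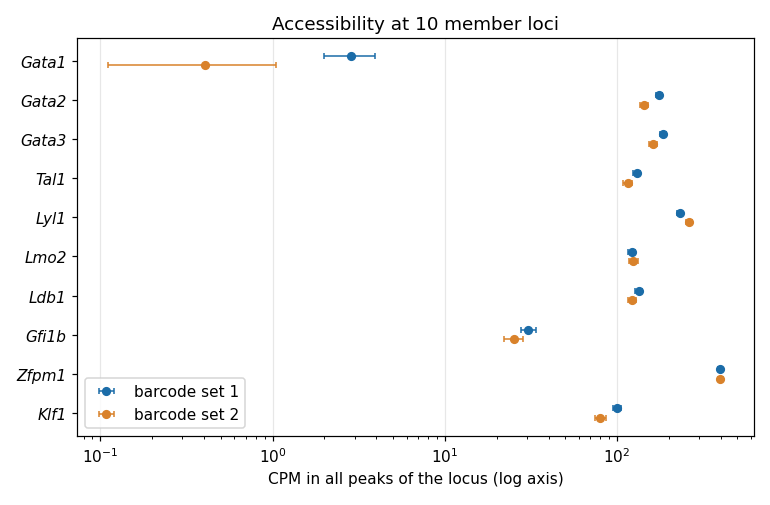
CPM summed over all peaks of each locus (log axis) in barcode set 1 and barcode set 2, with exact 95% Poisson intervals as bars. Gata1 lies at 2.84 and 0.407 CPM, and the other 9 loci lie between 25.2 and 398.2 CPM with both sets close together.

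**Figure D2:**
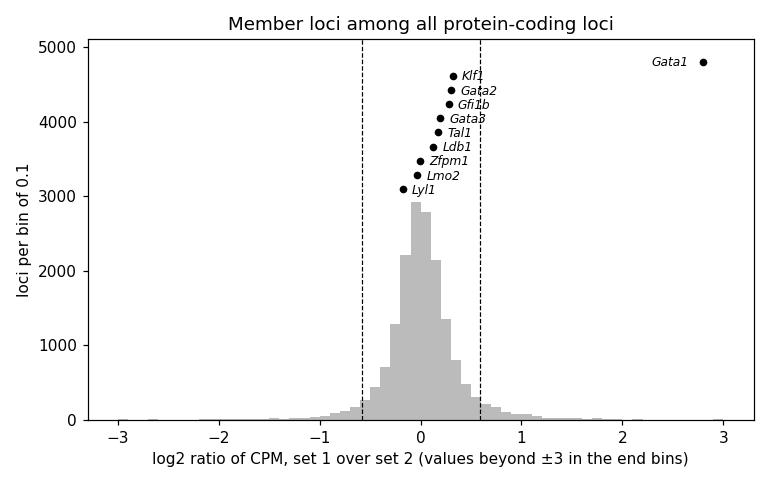
Log2 ratio of CPM, set 1 over set 2, for all 17289 protein-coding loci (gray bars, loci per bin of 0.1) and for the 10 loci (black points, placed above the bars for legibility). Dashed lines mark 1.5-fold, and only Gata1, at 2.80 on 37 and 4 counts, lies outside them.

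Per kb of peak, the unit used to compare genes, Klf1 was the most accessible locus with 34.8 CPM per kb, followed by Lyl1 with 19.4, Tal1 with 13.4, Ldb1 with 13.2, Zfpm1 with 11.7, Gata2 with 9.69, Gata3 with 9.04, Gfi1b with 8.60, Lmo2 with 7.05 and Gata1 with 5.29. The neighbors Tal1 and Ldb1, Gata3 and Gfi1b, and Lmo2 and Gata1 had overlapping counting intervals. Klf1 exceeded 95.9% and Lyl1 74.5% of coding loci on this scale, whereas Gata1 exceeded 5.4%. The Klf1 value and rank include the promoter peak of the neighboring gene Gcdh, at 44.1 CPM per kb. The peak of Klf1 itself was at 27.2 CPM per kb, and its window held no non-promoter peak.

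Gata1 encodes the factor that drives erythroid and megakaryocytic differentiation. Its locus on the X chromosome (7959260 to 7978071) had no promoter peak in the table and 1 non-promoter peak of 339 bp, 3.55 kb upstream of the RefSeq start and inside an intron of a longer GENCODE transcript. This peak held 37 counts in set 1 and 4 in set 2, or 2.84 CPM (1.996 to 3.91) and 0.407 CPM (0.111 to 1.04). The log2 ratio was 2.80 (1.32 to 4.75), higher than at 99.9% of coding loci. It was 1.45 with a pseudocount of 1 CPM, and 1.17 when the window reached 25000 bp upstream. That wider window takes in a peak at 14.72 kb from the 5′ end of the gene that went the other way, at 0.153 and 0.917 CPM (-2.58, -5.83 to -0.31). The counts came from 20 of 818 cells (2.45%, 1.5 to 3.75) in set 1 and from 2 of 636 cells (0.315%, 0.0381 to 1.13) in set 2, with at most 5 counts per cell. These cells were deeper than the rest, with medians of 19271.5 and 13137.0 counts for cells with and without the peak in set 1. After each cell was thinned to 4899 counts, 7 of 749 cells (0.935%, 0.377 to 1.92) and 1 of 560 cells (0.179%, 0.00452 to 0.991) kept a count, the intervals overlapped, and the locus had too few counts to be called. The X chromosome took 1.74% of counts in set 1 and 1.73% in set 2. Almost all LT-HSCs thus had no detectable cut at Gata1, which at this depth does not show that the locus was closed.

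Gata2, the GATA factor needed for the upkeep of stem cells, had 176.0 CPM (168.9 to 183.4) in set 1 and 142.9 CPM (135.5 to 150.5) in set 2, a log2 ratio of 0.30 (0.20 to 0.40). The locus on chromosome 6 (88193891 to 88207032) had 2 promoter peaks, of 3794 bp at the upstream start and of 8272 bp across the downstream start and the intron pair shown above. The larger peak was at 115.6 CPM in set 1 and 91.6 CPM in set 2 and was open in 47.9% and 38.8% of cells. The smaller was at 21.5 and 18.0 CPM. Since the peak is this wide, cuts at the intron pair cannot be told apart from cuts at the start. Of the 4 non-promoter peaks, that 3.81 kb upstream held most counts, at 24.8 and 20.7 CPM (log2 ratio 0.26, 0.00 to 0.52). The peak 9.19 kb upstream was at 7.74 and 5.80 CPM and that 8.58 kb downstream at 5.13 and 5.09 CPM, both with intervals that included 0. All 6 peaks stayed within 1.5-fold before thinning. In thinned cells the peak 3.81 kb upstream passed it, at 0.63 (0.11 to 1.16).

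Gata3, which directs T cell fate and is also present in stem cells, had 185.0 CPM in set 1 and 161.4 CPM in set 2, a log2 ratio of 0.20 (0.10 to 0.29). Its main promoter peak, at the RefSeq start, was at 82.8 and 70.8 CPM, and a second promoter peak 11.01 kb upstream was at 15.3 and 12.4 CPM. The main peak also covers a start of 4930412O13Rik. Of the non-promoter peaks, the largest, 6.12 kb downstream in an intron, was alike at 32.0 and 31.4 CPM (log2 ratio 0.03, -0.19 to 0.25), and that at 9.16 kb was at 12.7 and 11.7 CPM. The intron peaks farther downstream were higher in set 1. That at 11.12 kb was at 9.81 and 5.50 CPM (0.83, 0.37 to 1.32) and that at 17.68 kb at 9.27 and 6.11 CPM (0.60, 0.14 to 1.07).

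Zfpm1, the FOG-1 gene, had the widest spread of peaks, with 23 over chromosome 8, 122272879 to 122335943. The whole locus was equal in both sets, at 397.4 CPM (386.6 to 408.3) and 398.2 CPM (385.8 to 410.8), a log2 ratio of -0.00 (-0.06 to 0.06), and so was its promoter peak, at 208.0 and 205.7 CPM. Peaks inside the gene differed in both directions. The intron peak 27.34 kb downstream of the start was at 26.3 CPM in set 1 and 12.3 CPM in set 2 (log2 ratio 1.09, 0.79 to 1.40) and was open in 16.0% and 8.18% of cells. The peak at 41.12 kb was at 32.1 and 21.3 CPM (0.59, 0.35 to 0.84). In contrast, the peak at 17.74 kb was at 8.35 and 15.5 CPM (-0.89, -1.26 to -0.53) and that at 36.00 kb at 4.21 and 7.13 CPM (-0.76, -1.29 to -0.23). The peak 7.75 kb upstream, the largest outside the promoter, was at 28.7 and 40.7 CPM (-0.51, -0.71 to -0.30). Counted once per cell, the peaks at 17.74, 36.00 and 41.12 kb fell within 1.5-fold, with log2 ratios of -0.45, -0.13 and 0.50, and the peak 7.75 kb upstream was at -0.25 (-0.60 to 0.10). The peak at 36.00 kb had 8.80% of its counts in 1 cell.

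**Figure D3:**
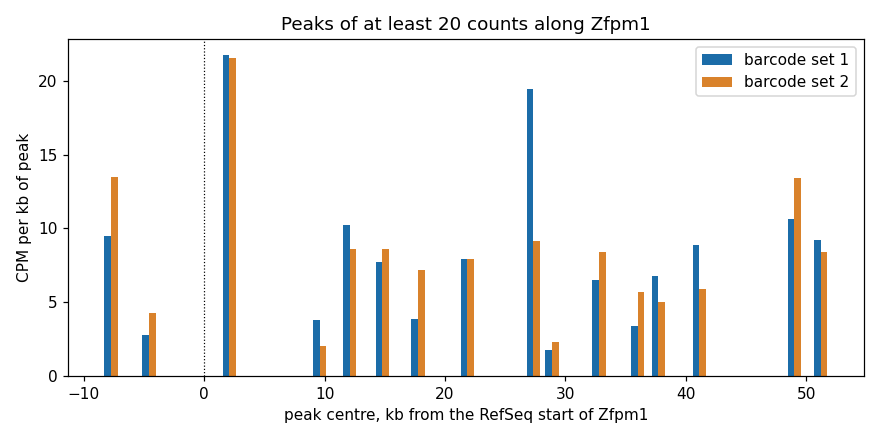
CPM per kb of peak in barcode sets 1 and 2 (paired bars) at each Zfpm1 peak with at least 20 counts, placed by the distance of its center from the RefSeq start (dotted line). The promoter peak is equal in both sets, the peak at 27.34 kb is higher in set 1, and the peaks at 17.74 kb and 7.75 kb upstream are higher in set 2 on this scale, with log2 ratios that shrink to -0.45 and -0.25 when counted once per cell.

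Tal1, which encodes SCL, had 130.0 CPM (123.8 to 136.3) in set 1 and 115.2 CPM (108.6 to 122.1) in set 2, a log2 ratio of 0.17 (0.06 to 0.28). Its promoter peak was at 59.9 and 48.8 CPM and was open in 32.0% and 26.6% of cells. The upstream peak at 3.70 kb (chromosome 4, 115052171 to 115053283) was at 17.3 and 9.98 CPM, a log2 ratio of 0.80 (0.45 to 1.15), and was open in 11.1% and 6.76% of cells. The neighboring upstream peak at 8.21 kb was alike, at 17.6 and 17.8 CPM (-0.02, -0.31 to 0.28). The peak 5.55 kb downstream, which overlaps exon sequence, was slightly higher in set 2, at 31.7 and 36.7 CPM (-0.21, -0.42 to -0.00). Its ratio was -0.18 (-0.53 to 0.18) when counted once per cell and -0.61 (-1.02 to -0.21) in thinned cells.

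Lyl1, the close relative of Tal1, was the only locus whose interval lay below 0. It had 231.2 CPM (223.0 to 239.6) in set 1 and 261.3 CPM (251.3 to 271.6) in set 2, a log2 ratio of -0.18 (-0.25 to -0.10). All of this was 1 peak of 12577 bp that also covers the start of the neighboring gene Trmt1, so cuts at Lyl1 and Trmt1 cannot be told apart. Counted once per cell the ratio was -0.03, and the peak was open in 71.3% of cells of set 1 and 69.5% of cells of set 2.

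Lmo2, the bridging LIM protein, had 121.7 CPM (115.8 to 127.8) and 124.5 CPM (117.7 to 131.7), a log2 ratio of -0.03 (-0.14 to 0.08). Its promoter peak was at 62.4 and 59.2 CPM. The non-promoter peak 9.57 kb downstream, at 53.7 and 57.4 CPM, was almost as large, and at 10537 bp it was the widest non-promoter peak of the 10 loci. The small peak that holds the E-box and GATA pair, 4.63 kb downstream of the nearest RefSeq start, was at 2.61 and 3.67 CPM (-0.49, -1.21 to 0.22), and the peak 3.99 kb upstream of the next start was at 2.99 and 4.28 CPM (-0.52, -1.18 to 0.15).

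Ldb1, the LIM-binding partner, had 133.2 CPM (127.0 to 139.6) and 122.0 CPM (115.2 to 129.1), a log2 ratio of 0.13 (0.02 to 0.23). Nearly all of it came from 2 promoter peaks, of 5542 bp at 73.4 and 63.2 CPM and of 3256 bp at 55.9 and 51.7 CPM. The upstream peak with both CAGCTG words shown above went the other way, with 33 counts in set 1 and 55 in set 2, or 2.53 and 5.60 CPM (-1.15, -1.82 to -0.50). The intron peak at 0.37 kb was at 1.38 and 1.43 CPM.

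Gfi1b, which encodes a repressor best known from erythroid and megakaryocytic cells, was second lowest in total level. It had 30.5 CPM (27.6 to 33.6) and 25.2 CPM (22.1 to 28.5), a log2 ratio of 0.28 (0.05 to 0.51). Its promoter peak was at 23.3 and 20.4 CPM (0.19, -0.07 to 0.46). The upstream peak at 6.26 kb had 41 and 15 counts, or 3.14 and 1.53 CPM (1.04, 0.16 to 2.00), and that at 5.43 kb downstream was at 2.99 and 2.65 CPM. The intron peak at 3.95 kb had 14 and 6 counts, or 1.07 and 0.611 CPM (0.81, -0.66 to 2.48).

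Klf1, the erythroid KLF factor, had 99.6 CPM (94.3 to 105.2) and 79.9 CPM (74.4 to 85.7), a log2 ratio of 0.32 (0.19 to 0.45). More counts than those of Klf1 itself belonged to the promoter of the upstream neighbor Gcdh, a housekeeping enzyme of lysine breakdown, which was at 56.8 and 44.8 CPM. The peak of Klf1 itself was at 42.8 and 35.1 CPM (0.29, 0.09 to 0.48), or 27.2 CPM per kb over all cells, and was open in 26.0% and 21.7% of cells.

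The own promoter peaks of these genes stayed within 1.5-fold between the sets, and some of their other peaks did not. None of the 12 own promoter peaks passed 1.5-fold, while 14.5% of all promoter peaks did, and 12 peaks are too few to tell these apart. The share over all promoter peaks covers peaks from 20 counts up, whereas the 12 held 322 to 5583 counts. The log2 ratio of the 12 own promoter peaks was above 0 in 11, with a median of 0.22. Of all promoter peaks, 51.5% were above 0, with a median of 0.01. Counting intervals of the 12 lay above 0 at 5 and below 0 at 1, and the same shares were not computed over all promoter peaks. Counted once per cell, only the larger Gata2 peak (0.24, 0.006 to 0.475) and the wider Ldb1 peak (0.35, 0.08 to 0.62) kept intervals above 0. The Lyl1 interval then included 0 (-0.21 to 0.15). These 12 peaks were wide, with a median of 4847.5 bp against 1517 bp for all promoter peaks, and 9 of 12 were at or above the 90th percentile of width. In CPM, 9 of 12 lay above the median promoter peak of 24.7 CPM. Their density was ordinary, since 7 of 12 lay below the median promoter peak of 14.3 CPM per kb. Of the 48 non-promoter peaks, 39 had at least 20 counts. Of these, 11 were more than 1.5-fold higher in set 1 (28.2%) and 5 were higher in set 2 (12.8%), while 23.5% and 22.9% of all non-promoter peaks were. Their median log2 ratio was 0.03, as in all non-promoter peaks. Among the 23 with at least 100 counts, 5 were higher in set 1 and 2 in set 2, that is 21.7% and 8.70%, and the shares over all such peaks were 18.6% and 16.7%. All 7 kept their direction when a cell could add 1 count at most, in thinned cells and without the deepest cells, and 4, 5 and 6 of them stayed past 1.5-fold. The shares higher in set 1 lay near those of all non-promoter peaks, and the shares higher in set 2 lay below them. The peaks counted here are few, and whether they differ from all peaks was not tested.

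**Figure D4:**
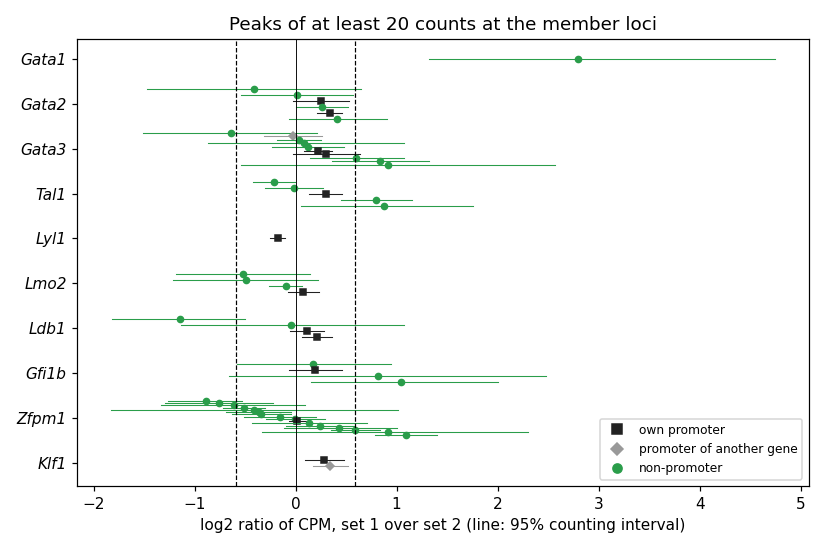
Log2 ratio of CPM, set 1 over set 2, for each peak of at least 20 counts at the 10 loci, with black squares for own promoters, gray diamonds for promoters of other genes and green circles for non-promoter peaks. Lines are 95% counting intervals, and dashed lines mark 1.5-fold. All 12 own promoters lie between the dashed lines, and 16 non-promoter peaks lie outside.

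The shares of cells with a cut followed the levels. In set 1 and set 2, Zfpm1 was open in 81.9% and 80.8% of cells, Lyl1 in 71.3% and 69.5%, Gata3 in 64.4% and 59.9%, Gata2 in 59.3% and 53.0%, and Ldb1 in 54.8% and 48.0%. Tal1 was open in 52.4% and 46.5%, Lmo2 in 46.8% and 45.6%, Klf1 in 45.7% and 42.0%, and Gfi1b in 20.7% and 17.6%. All 10 shares were higher in set 1. In thinned cells 9 of 10 were, Lyl1 being lower in set 1 at 53.9% against 58.2%, and no pair of intervals was apart at any of the 10 loci. The same counts were not made over all coding loci, and before thinning the median cell was deeper in set 1 (13358.5 and 12755.0 counts). The counts therefore do not mark these 10 loci out. The median cell had a cut at 5 of the 10 loci in both sets, and at 4 when thinned. Thinned cells with none of the 10 loci open made up 1.07% of set 1 and 0.714% of set 2.

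**Figure D5:**
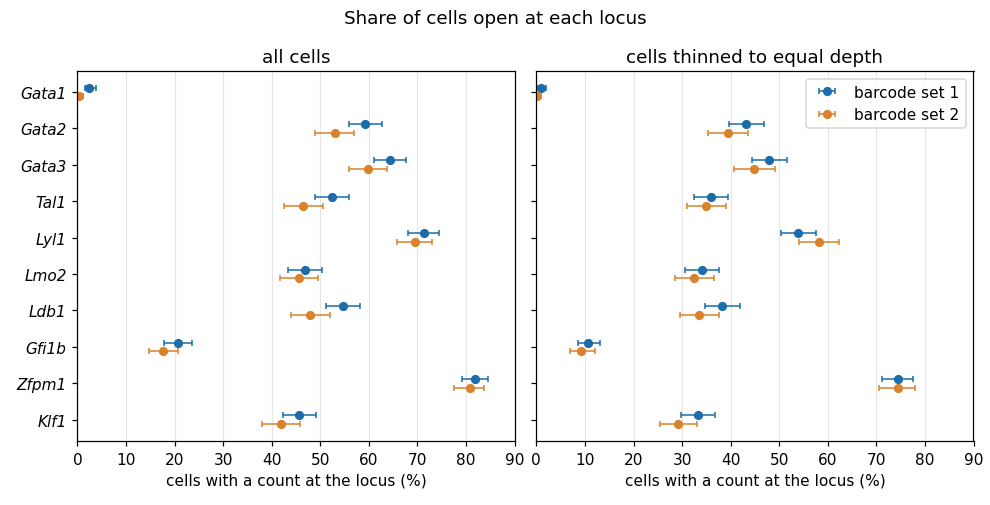
Percentage of cells with at least 1 count at each locus in barcode sets 1 and 2, for all cells (left) and for cells thinned to 4899 counts (right), with exact 95% Clopper-Pearson intervals. Zfpm1 is open in most cells and Gata1 in almost none, and in thinned cells the intervals of both sets overlap at all 10 loci. Such shares were not computed over all coding loci.

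Single words were found in the member peaks at shares on both sides of those of all peaks. In the central 300 bases, AGATAA was found in 0 of the 14 promoter peaks, own and of other genes, and in 5 of the 48 non-promoter peaks (10.4%), while 5.49% of all promoter peaks and 14.5% of all non-promoter peaks held it. The 5 were the peak upstream of Gata1, the Gata3 peaks at 11.12 and 9.16 kb and the Zfpm1 peaks at 27.34 and 41.12 kb. All 5 had log2 ratios above 0, from 0.12 to 2.80, which was noticed after the values were known. Over whole peaks, 14 non-promoter peaks held AGATAA, 9 of them above 0 and 5 below, among them the Zfpm1 peak at 17.74 kb (-0.89) and the Lmo2 peak at 9.57 kb with 8 such words (-0.10). Of all non-promoter peaks, 51.9% were above 0. CATCTG was found in 10 of 48 non-promoter peaks (20.8%, with 23.2% of all) and CAGCTG in 11 of 48 (22.9%, with 20.1% of all). The RUNX word TGTGGT was found in 16 (33.3%, with 30.1% of all), the ETS word GGAAGT in 14 (29.2%, with 32.5% of all) and the KLF word CCACCC in 17 (35.4%, with 25.5% of all). All words were searched on both strands. In the 13 RefSeq promoters listed for 9 of the 10 genes (250 bases before to 50 after the start, GRCm38.p6), AGATAA was found in 2, while 11.2% of all 32851 promoters held it, and CCACCC in 7, with 31.5% of all.

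Of 44 genes that act with these factors or are their known targets, 40 had a peak in the window. Of these, 6 differed by over 1.5-fold (15.0%, with 9.54% over all coding loci), 3 in each direction, and the median log2 ratio was 0.08. Among E proteins and their inhibitors, Id1, which blocks E proteins, was at 40.0 and 26.1 CPM (0.62, 0.40 to 0.84), and Tcf3, Tcf4, Tcf12, Id2 and Id3 stayed within 1.5-fold. The LIM and adaptor partners (Lmo4, Ssbp2, Ssbp3), the 6 corepressors (among them Cbfa2t3, Kdm1a and Rcor1) and the other stem cell factors of the same network, Runx1, Erg and Fli1, all stayed within 1.5-fold, with medians of -0.06, 0.01 and -0.01. Runx1 was at 320.1 and 323.3 CPM. Among relatives of the 10 genes, Gfi1, the paralog of Gfi1b, was higher in set 2, at 33.0 and 57.7 CPM (-0.81, -0.99 to -0.62).

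Erythroid targets went both ways. Epor, the erythropoietin receptor, was at 32.6 and 21.4 CPM (0.61, 0.37 to 0.86) and the anion exchanger gene Slc4a1 at 6.67 and 4.38 CPM (0.61, 0.06 to 1.17), whereas the globin gene Hbb-bt was at 4.37 and 7.54 CPM (-0.79, -1.31 to -0.27). The values of Slc4a1 and Hbb-bt each came from 1 peak away from the own promoter, where 0 counts were listed. Ank1 and Tfrc stayed within 1.5-fold, and Alas2, Hba-a1 and Hbb-bs had no peak. Of the 6 megakaryocyte targets none passed 1.5-fold, and their median log2 ratio was 0.40. The window of the platelet glycoprotein gene Gp9 was at 76.9 and 55.2 CPM (0.48, 0.33 to 0.63), while its own promoter was alike, at 27.3 and 28.5 CPM. Among mast cell targets, Hdc, which makes histamine, was at 26.2 and 40.9 CPM (-0.64, -0.86 to -0.43), Cpa3 stayed within 1.5-fold, and Ms4a2 had no peak. Kit, the stem cell factor receptor, was at 108.6 and 90.3 CPM (0.27, 0.14 to 0.39).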

How the data were processed

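Single-cell ATAC-Seq libraries were processed by the authors with Cell Ranger ATAC (1.2.0, builds mm10 and GRCm38, per the labels), and the deposited values are raw counts of cut sites per peak and cell, without normalization. Since 88.7% of non-zero values were even, fragments mostly gave 2 counts, so counting intervals are too narrow. A further deposited table has no peak names and was not used here. No sample could be given to a barcode set, so the test planned between groups was replaced by a description of both sets.

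Counts were summed per set and scaled to CPM. Intervals were exact Poisson (CPM), conditional binomial (ratios, computed without a pseudocount) and Clopper-Pearson (shares). Loci and peaks needed 20 counts, and the cut was 1.5-fold. Promoter peaks reached to within 1000 bp of a coding start (GENCODE M21), and distances run from the peak center to the nearest RefSeq start. Printed starts count from 1. For equal depth, cells were thinned to 4899 counts, the 10th percentile, leaving out 69 cells of set 1 and 76 of set 2. No cell was removed otherwise and no doublet caller was run.

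For each gene, its promoter peaks, its 3 non-promoter peaks of most counts and those past 1.5-fold with at least 100 counts were described. The genes, lists and words were chosen with earlier results of these data known. Functions were checked on simulated data. Python 3.11.15, numpy 2.4.6, scipy 1.17.1 and pandas 2.3.3 were used. Other settings are listed in the closing section. Some genes of the lists are counted in the sums and not reported here by name.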

Additional observations from a re-analysis of the deposited data

How the results depend on the processing

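No locus or median changed direction under any of the alternatives run, except Zfpm1 and Lmo2, whose ratios near 0 changed sign (Zfpm1 up to 0.05 when counted once per cell, Lmo2 0.01 without cells of over 3 times the median depth). In thinned cells 0 loci passed 1.5-fold where 1 had, because Gata1 no longer had 20 counts; its ratio there was 2.75. Where 16 non-promoter peaks had passed 1.5-fold, 9 did when counted once per cell, 8 in thinned cells and 9 with a pseudocount of 1 CPM. These are totals for each setting and are not all drawn from the 16. The Lmo2 peak at 3.99 kb passed only when counted once per cell (-0.63, against -0.52). The Gata2 peak 3.81 kb upstream passed only in thinned cells (0.63, against 0.26). With promoters of 2500 bp on either side, 1 promoter peak passed where 0 had. The median share of open cells fell from 53.6% and 47.3% in sets 1 and 2 to 37.1% and 34.3% in thinned cells, and to 26.6% and 21.9% when at least 3 counts were asked for. Among single loci, counting once per cell moved Gata2 to 0.19, Lyl1 to -0.03 and Klf1 to 0.14, thinning moved Ldb1 to 0.24, and 25000 bp upstream moved Gata1 to 1.17. Another 85 values of single loci moved by less than their intervals, and 33 summary values stayed within their limits, 1.5 times for a count. The counting of single peaks of at least 100 counts in other ways was added after the data were seen. No paired analysis was possible because no barcode set could be given to a sample. No replicate could be left out, since each group had 1 sample. For Gata1, 41 counts set the precision.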

Other observations

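Enhancers of these genes can lie outside the windows used above, so the 2 non-promoter peaks of most counts were also listed on each side within 100 kb of each gene. This was chosen after the data were seen, and no peak is assigned to a gene. The most accessible such peak lay 39.77 kb downstream of the 5′ end of Tal1 (chromosome 4, 115094858 to 115097530, 2673 bp). It was at 104.4 CPM in set 1 and 81.0 CPM in set 2, a log2 ratio of 0.37 (0.24 to 0.49), and was open in 46.6% and 37.4% of cells. It held more counts than the promoter peak of Tal1.

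Upstream of Gata2, a peak at 85.88 kb was at 50.8 and 32.5 CPM (log2 ratio 0.65, 0.45 to 0.84). A peak at 69.79 kb was at 35.6 and 22.2 CPM (0.68, 0.44 to 0.92). Both were over 1.5-fold higher in set 1, a size that no peak in the Gata2 window reached before thinning. The peaks outside the windows were not thinned. The peak 35.27 kb downstream of the 5′ end of Gata2 went the other way, at 7.05 and 11.7 CPM (-0.73, -1.14 to -0.32). That at 48.87 kb was at 19.7 and 15.6 CPM (0.34, 0.04 to 0.64). The peaks named here are picked from 39 listed. Of all non-promoter peaks with at least 100 counts, 18.6% were over 1.5-fold higher in set 1 and 16.7% in set 2. Upstream of Lmo2, a peak at 26.17 kb was higher in set 1, at 45.7 and 28.8 CPM (0.66, 0.46 to 0.87), and its neighbor at 11.98 kb was higher in set 2, at 38.2 and 51.2 CPM (-0.42, -0.60 to -0.24). The peak 23.38 kb downstream of the 5′ end of Gfi1b was equal, at 48.9 and 48.8 CPM (0.00, -0.17 to 0.18), and exceeded the 23.3 and 20.4 CPM of the Gfi1b promoter. Larger differences went both ways. The peak 98.31 kb upstream of Tal1 was at 13.0 and 3.77 CPM (1.79, 1.27 to 2.34), whereas the peak 88.29 kb downstream of the 5′ end of Gata3 was at 2.30 and 9.17 CPM (-1.995, -2.64 to -1.38), that at 18.57 kb at Ldb1 was at 3.91 and 10.7 CPM (-1.45, -1.96 to -0.96) and that at 148.19 kb at Zfpm1 was at 7.13 and 14.9 CPM (-1.06, -1.45 to -0.68).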
